A study of Mus with 8 samples.

Results

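The endoplasmic reticulum folding and stress genes are a list of 40 mouse genes for chaperones, disulfide and prolyl isomerases, stress sensors with their transcription factors and targets, and proteins that remove misfolded chains. A gene was counted as measured where a probe set of the array carried exactly its symbol and no other, and the brightest such probe set was used. This gave 38 of the 40 genes, out of 21154 symbols on the array. Pdia4 and Manf share their probe sets with a second symbol and were not counted. RAW264 cells, a macrophage-like line of mouse, were grown for 24 h with BTEE, a Botryococcus terribilis ethanol extract, at 0.2 mg/mL, or without it (control). Both kinds of culture then received 1 ng/mL LPS, a bacterial cell wall component, for 6 h or 17 h. Each of the 4 groups had 2 arrays, and no array without LPS was among them, so each comparison is made within LPS-treated cells. This dose of BTEE was above the range that the study describes as free of significant cytotoxicity. Separate cultures are not stated for the 2 arrays of a group, and p-values then measure only the spread between these arrays. Whether the control medium held the ethanol that carries the extract is not given in the sources used here.

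The endoplasmic reticulum is where secreted and membrane proteins are folded, given sugar chains and disulfide bonds, and checked before export. When unfolded proteins collect there, 3 membrane sensors, encoded by Ern1 (IRE1), Eif2ak3 (PERK) and Atf6, start the unfolded protein response. IRE1 splices the mRNA of Xbp1 and PERK raises translation of Atf4, and the transcription factors made in this way, with cleaved ATF6, induce chaperones, degradation components and, in longer stress, Ddit3 (CHOP). In macrophages this machinery also serves the secretion of cytokines.

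Arrays of one group correlated over all 21154 symbols with r between 0.9984 and 0.9987, and at one time a BTEE and a control array with r from 0.9942 to 0.9948. Array medians lay between 5.26 and 5.30 in log2 signal. All 10 macrophage markers were measured, with a median log2 signal of 15.32, and the markers of B cells, T cells, neutrophils and fibroblasts had medians of 3.49, 3.92, 4.33 and 4.41, below the median of the arrays. Of the macrophage markers 4 fell and 0 rose with BTEE at 6 h, and their mean log2 signal was 15.47 to 15.49 in the BTEE arrays and 15.75 to 15.77 in the control arrays. At 17 h, 1 rose and 2 fell, and the means of all 4 arrays lay between 15.78 and 15.79. Among the 9387 brighter symbols, whose mean log2 signal reached 6, 16.5% rose and 20.3% fell at 6 h. At 17 h 22% of these brighter symbols rose and 16.7% fell. Whether the counts of the 10 macrophage markers differ from these shares was not tested. In RNA of whole cultures, a change in the makeup of the cells and a change in the RNA per cell cannot be told apart. Of the other lists, the neutrophil markers Mpo and Cxcr2 (0.54 and 0.37, of 4 measured) and the T cell marker Cd3g (0.70, of 4) rose at 6 h. The fibroblast marker Col1a1 (-1.09, of 3) fell, and 0 of 4 B cell markers passed. These are dim signals, with means of 5.09 for Mpo, 5.08 for Cxcr2, 2.95 for Cd3g and 5.41 for Col1a1. Of all symbols 14.5% rose and 15.7% fell at 6 h. At 17 h none of these 4 lists had a call. The part of any of these markers in the results was not tested.

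In BTEE-treated cells the mRNAs of most chaperones and isomerases were higher than in control cells at 6 h. At that time, 23 of the 38 members rose, 0 fell and 15 did not pass the test, where a member rose or fell if its limma p-value, adjusted over all 21154 symbols, was under 0.05. Of all symbols, 14.5% rose and 15.7% fell in that comparison. The rises exceeded 1.5-fold for 10 members, as for 4.81% of all symbols. At an unadjusted p under 0.05, 27 members were higher and 0 lower, beside 20.9% and 22.3% of all symbols. The median log2 fold change was 0.41 over the members and -0.005 over all symbols. In 32 members both BTEE arrays lay above both control arrays, in 1 both lay below and in 5 they overlapped, where 32.8% of all symbols lay above and 34.5% below. The mean log2 signal over the 38 members was 12.00 and 11.96 in the BTEE arrays and 11.53 and 11.54 in the control arrays at 6 h. Leaving out any 1 of the 4 arrays left 19 to 21 members that rose.

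At 17 h the members went both ways. There 6 rose and 5 fell, where 14.9% of all symbols rose and 13.6% fell, and 27 did not pass the test. The median log2 fold change was 0.00 over the members and 0.005 over all symbols. Both BTEE arrays lay above both control arrays in 15 members, below them in 11, and overlapped with them in 12. Of all symbols 33.9% lay above and 32.6% below at 17 h, so separate arrays were common. The mean log2 signal over the members was 12.40 and 12.36 with BTEE and 12.39 and 12.37 in control arrays, so that the groups overlapped. The count of 17 h depended on single arrays. It was 1 to 2 higher and 3 to 4 lower when any 1 of the 4 arrays was left out, with 1 higher without replicate 1 of BTEE and 2 higher without replicate 2 of BTEE or either control replicate.

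The difference between the BTEE effects at the 2 times was tested directly. For 18 members the effect at 17 h was lower than that at 6 h, and for 0 members it was higher, where 14.8% of all symbols were lower and 16.7% higher. A second and dimmer probe set of Ddit3, not counted here, had a higher difference (0.40, adjusted p = 0.0358, limma fit over all probe sets). The median difference was -0.34 over the members and 0.015 over all symbols. At an unadjusted p under 0.05, 22 members were lower and 1, Xbp1, was higher, beside 20.9% and 23.0% of all symbols. This comparison uses the same 8 arrays as those it is made from. By pattern, 18 members rose at 6 h and did not pass at 17 h, as did 9.73% of all symbols. Another 4 members, Dnajc3, P4hb, Fkbp2 and Fkbp11, rose at both times, as did 2.11% of all symbols. No member fell at both times, as 2.58% of all symbols did. Syvn1 rose at 6 h and fell at 17 h, and 5.71% of all symbols had opposite calls. Xbp1 and Edem2 rose at 17 h without passing at 6 h, as did 9.70% of all symbols, and Dnajb9, Atf4, Trib3 and Chac1 fell at 17 h without passing at 6 h, as did 8.39%. The other 9 members passed at neither time, as did 51.8% of all symbols.

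**Figure D1:**
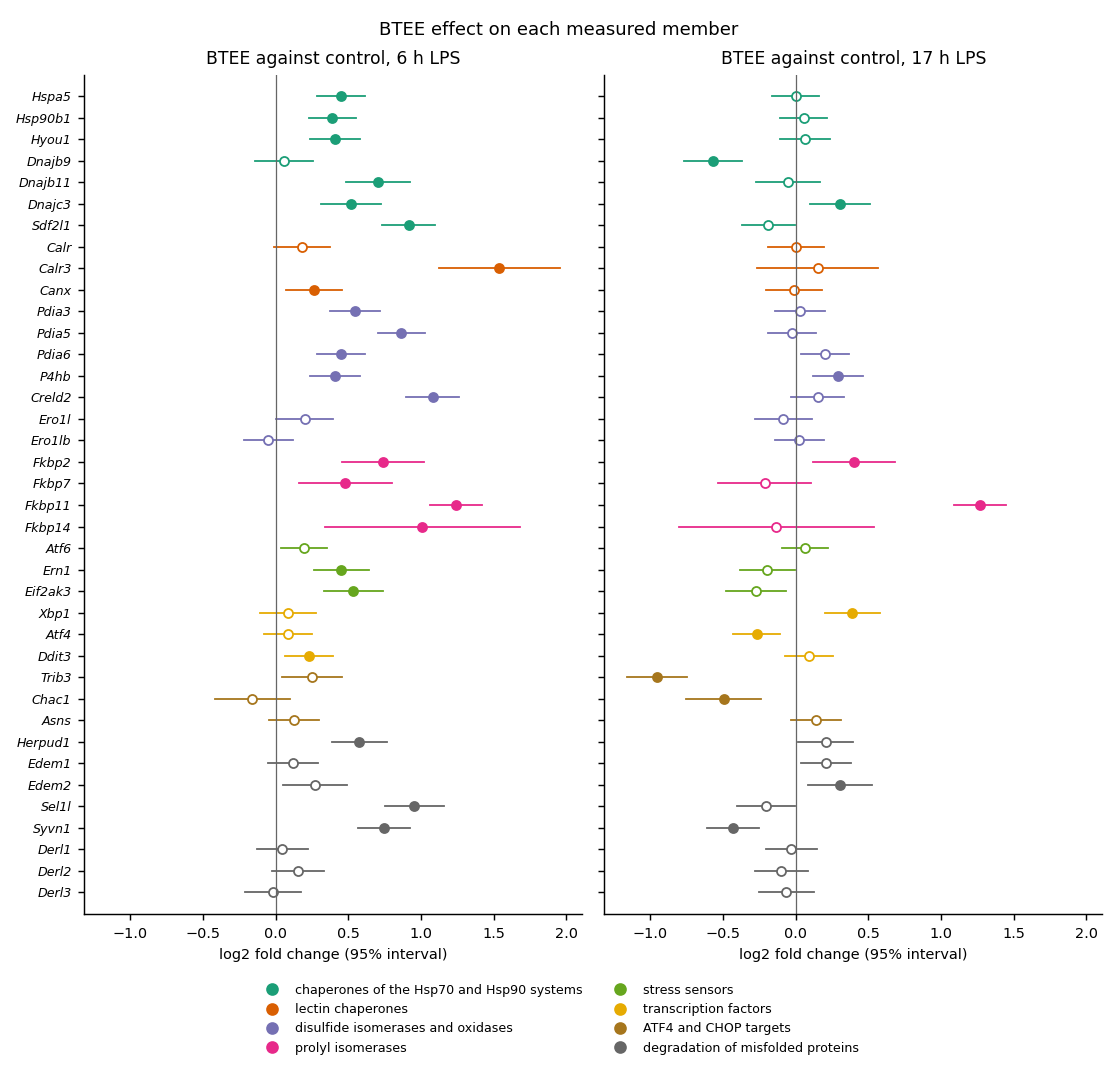
Log2 fold change of BTEE against control with its 95% interval for each of the 38 members at 6 h (left) and 17 h (right) of LPS, coloured by role; filled circles are members with an adjusted p under 0.05. At 6 h all filled circles lie right of 0, from 0.23 (Ddit3) to 1.54 (Calr3), and at 17 h they lie on both sides, from -0.96 (Trib3) to 1.27 (Fkbp11).

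Of the chaperones of the Hsp70 and Hsp90 systems, 6 of 7 measured rose at 6 h, and 1 rose and 1 fell at 17 h. Beside this and the other role counts of the BTEE effect, 14.5% of all symbols rose and 15.7% fell at 6 h. At 17 h 14.9% rose and 13.6% fell. Hspa5 (BiP), the main Hsp70 of the endoplasmic reticulum (chr2:34772090-34776529 of GRCm38.p6), read 18.07 and 18.12 in the BTEE arrays and 17.61 and 17.68 in the control arrays at 6 h. At 17 h it read 17.99 and 18.00 with BTEE and 17.98 and 18.01 in control arrays. The groups were thus apart at 6 h, and at 17 h the control values enclosed those of BTEE. Hspa5 rose by 0.45 in log2 at 6 h (SE 0.07, adjusted p = 0.00459), had 0.00 at 17 h (SE 0.07), and the effect differed between the times by -0.45 (SE 0.10, adjusted p = 0.0143).

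Sdf2l1, which works with BiP and its J-domain partners, had the largest rise of these chaperones at 6 h. It read 12.67 and 12.66 with BTEE and 11.77 and 11.73 without at 6 h, and 12.11 and 12.25 with BTEE and 12.34 and 12.40 without at 17 h. The BTEE arrays were above the control arrays at 6 h and below them at 17 h. The log2 fold changes were 0.92 at 6 h (SE 0.08, adjusted p = 8.42e-04) and -0.19 at 17 h (SE 0.08, adjusted p = 0.107), and their difference was -1.11 (SE 0.11, adjusted p = 0.00137). Dnajb11, a J-domain co-chaperone of BiP, read 10.90 and 11.05 with BTEE and 10.20 and 10.34 in control arrays at 6 h. At 17 h it read 10.86 and 10.84 with BTEE and 10.98 and 10.83 without. Only at 6 h did its groups not overlap, with a rise of 0.71 (SE 0.09, adjusted p = 0.00294), and the difference between the times was -0.76 (SE 0.13, adjusted p = 0.00678).

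Hsp90b1 (GRP94), the Hsp90 of this compartment, read 17.14 and 17.20 with BTEE and 16.78 in both control arrays at 6 h, and 17.22 and 17.28 against 17.19 and 17.20 at 17 h. It rose by 0.39 at 6 h (SE 0.07, adjusted p = 0.00725). Hyou1, a nucleotide exchange factor for BiP, read 15.16 and 15.13 against 14.78 and 14.69 at 6 h and 15.22 and 15.17 against 15.17 and 15.09 at 17 h, and rose by 0.41 at 6 h (SE 0.07, adjusted p = 0.00789). Both BTEE arrays of Hsp90b1 and Hyou1 were above the controls at 6 h, and at 17 h neither gene passed the test (log2 fold changes 0.06 and 0.07). Their differences between the times, -0.34 and -0.35, passed with all arrays (adjusted p = 0.0375 and 0.0430) and had adjusted p-values up to 0.101 and 0.121 with any 1 array left out.

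Dnajc3, a co-chaperone of BiP also known as an inhibitor of PERK, was the chaperone that rose at both times. It read 11.90 and 11.89 with BTEE and 11.41 and 11.34 without at 6 h, and 11.56 and 11.60 against 11.38 and 11.17 at 17 h. The BTEE arrays were above the control arrays at both times, by 0.52 at 6 h (SE 0.09, adjusted p = 0.00634) and 0.31 at 17 h (SE 0.09, adjusted p = 0.0401). The later call rested on single arrays, with an adjusted p up to 0.182 without one of them, that is without either BTEE replicate or without replicate 2 of the control. Dnajb9, a J-domain protein that binds IRE1 and holds it inactive, had another course. It read 11.45 and 11.62 with BTEE and 11.45 and 11.50 without at 6 h, so the groups overlapped, and 12.15 and 12.25 against 12.75 and 12.79 at 17 h. Dnajb9 had 0.06 at 6 h (SE 0.08, adjusted p = 0.623) and fell by 0.57 in log2 at 17 h (SE 0.08, adjusted p = 0.00456).

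Among the lectin chaperones, which hold glycoproteins while they fold, 2 of 3 rose at 6 h and 0 of 3 passed at 17 h. Calr3, a calreticulin relative known from the testis, had the largest log2 fold change of all members, from a low signal. It read 6.56 and 6.39 with BTEE and 4.65 and 5.22 in control arrays at 6 h, and 6.14 and 6.30 against 6.05 and 6.09 at 17 h. The control arrays of 6 h were the low ones, and they lay further apart than those of any other group. The rise at 6 h was 1.54 (SE 0.18, adjusted p = 0.00186), and the difference between the times was -1.39 (SE 0.25, adjusted p = 0.00736). Canx (calnexin) rose by 0.27 (SE 0.08, adjusted p = 0.0479), and this call was lost (adjusted p up to 0.210) without replicate 1 of BTEE or without either control replicate of 6 h. Calr (calreticulin) had 0.18 at 6 h (adjusted p = 0.139) and 0.00 at 17 h.

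Of the 7 disulfide isomerases and oxidases measured, 5 rose at 6 h and 1 rose at 17 h. Creld2, a secreted disulfide isomerase-like protein and known target of the unfolded protein response (chr15:88819646-88826681), read 13.13 and 13.03 with BTEE and 12.02 and 11.98 in control arrays at 6 h. At 17 h it read 13.29 and 13.24 with BTEE and 13.06 and 13.17 without. The control arrays of 6 h were the low ones, and the other 6 lay within 13.03 to 13.29. Creld2 rose 2.11-fold at 6 h, 1.08 in log2 (SE 0.08, adjusted p = 7.04e-04), had 0.15 at 17 h (SE 0.08, adjusted p = 0.190) and differed between the times by -0.93 (SE 0.11, adjusted p = 0.00213).

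Pdia5, another isomerase of this family, also had its lowest values in the 2 control arrays of 6 h. It read 8.62 in both BTEE arrays and 7.78 and 7.73 in the control arrays at 6 h, and 8.65 and 8.70 with BTEE against 8.73 and 8.67 at 17 h. It rose by 0.87 at 6 h (SE 0.07, adjusted p = 8.34e-04), had -0.03 at 17 h (adjusted p = 0.812) and differed by -0.89 (SE 0.10, adjusted p = 0.00174). Pdia3, the isomerase that works with the lectin chaperones, read 15.65 and 15.59 against 15.11 and 15.04 at 6 h and 15.85 and 15.77 against 15.76 and 15.80 at 17 h. It rose by 0.55 at 6 h (SE 0.07, adjusted p = 0.00300), and its difference was -0.52 (SE 0.10, adjusted p = 0.0108).

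P4hb, the classical protein disulfide isomerase, rose at both times. It read 14.37 and 14.39 with BTEE and 14.01 and 13.93 without at 6 h, and 15.06 and 15.13 against 14.84 and 14.77 at 17 h. The BTEE arrays lay above the control arrays of their time by 0.41 at 6 h (SE 0.07, adjusted p = 0.00765) and by 0.29 at 17 h (SE 0.07, adjusted p = 0.0260), and without any 1 of the arrays the adjusted p of 17 h was 0.0619 to 0.120. Pdia6 rose by 0.45 at 6 h (SE 0.07, adjusted p = 0.00483) and had 0.20 at 17 h (adjusted p = 0.0723). The oxidases that recharge these isomerases did not pass at either time: Ero1l had 0.20 and -0.09, and Ero1lb -0.05 and 0.03, at 6 h and 17 h.

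All 4 prolyl isomerases of the FK506-binding family, which turn proline bonds in folding chains, rose at 6 h, and 2 of them rose at 17 h. Fkbp11 (chr15:98724368-98728198), known from secretory cells, read 10.03 and 9.89 with BTEE and 8.71 and 8.73 in control arrays at 6 h, and 8.94 and 8.91 against 7.67 and 7.64 at 17 h. At each time the BTEE arrays lay more than 1 log2 unit above the control arrays, and the difference between the times was 0.03 (95% interval -0.22 to 0.28, adjusted p = 0.851). Its folds were 2.36 and 2.41, the largest of any member at 17 h, and its calls stood in each alternative run.

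Fkbp2 read 11.08 in both BTEE arrays and 10.25 and 10.43 in control arrays at 6 h, and 10.60 and 10.27 against 10.06 and 10.01 at 17 h. The groups did not overlap at either time. Fkbp2 rose by 0.74 at 6 h (SE 0.12, adjusted p = 0.00536) and by 0.40 at 17 h (SE 0.12, adjusted p = 0.0446), and the call of 17 h was lost (adjusted p up to 0.178) without replicate 1 of BTEE or without either control replicate. Fkbp7 and Fkbp14 had mean log2 signals of 5.90 and 4.89 and arrays further apart. At 6 h Fkbp7 read 6.57 and 6.45 with BTEE and 5.98 and 6.08 without, and at 17 h 5.63 and 5.21 against 5.67 and 5.60.

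Fkbp14 read 6.05 and 5.41 against 4.71 and 4.73 at 6 h, and 4.85 and 4.11 against 4.80 and 4.43 at 17 h. Both genes had separate groups at 6 h and overlapping groups at 17 h, with rises of 0.48 (SE 0.14, adjusted p = 0.0365) for Fkbp7 and 1.01 (SE 0.28, adjusted p = 0.0355) for Fkbp14 at 6 h. The call of Fkbp7 was lost without any 1 of the 4 arrays, at adjusted p-values of 0.0841 to 0.147. That of Fkbp14 was lost without replicate 1 of BTEE, where its log2 fold change was 0.69, and without either control replicate, at adjusted p-values up to 0.163.

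**Figure D2:**
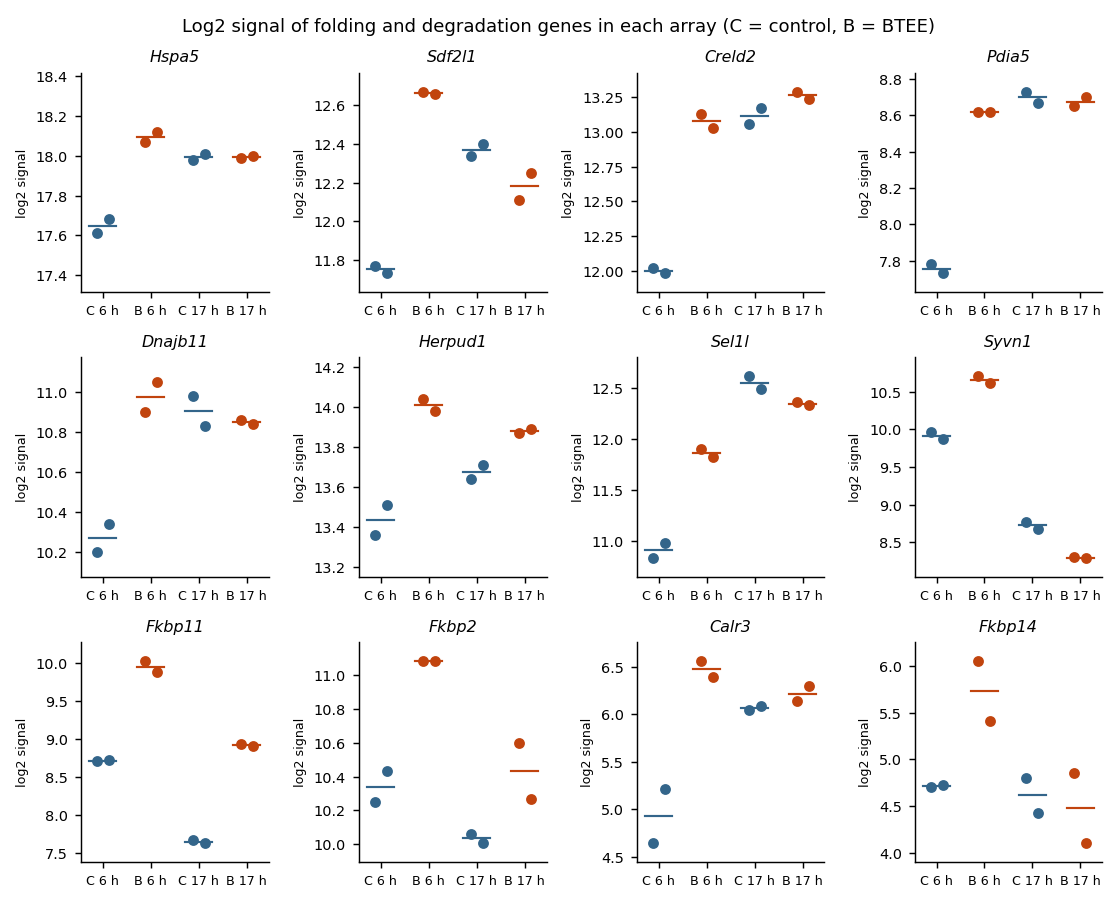
Log2 signal in each array (points) and group mean (lines) for 12 folding and degradation genes, in control (C, blue) and BTEE-treated (B, orange) cells at 6 h and 17 h of LPS; each panel has its own axis, which does not start at 0. In Creld2, Pdia5 and Calr3 the 2 control arrays of 6 h stand below the other 6, and in Fkbp11 the BTEE arrays stand above the control arrays at both times.

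Of the 3 sensors, Ern1 and Eif2ak3 rose at 6 h, and 0 of 3 passed at 17 h. Ern1 (IRE1), a kinase and ribonuclease, read 9.00 and 8.88 with BTEE and 8.53 and 8.45 in control arrays at 6 h, and 12.44 and 12.35 against 12.62 and 12.56 at 17 h. The BTEE arrays were above the control arrays at 6 h and below them at 17 h, with a log2 fold change of 0.45 at first (SE 0.08, adjusted p = 0.00770), -0.20 later (SE 0.08, adjusted p = 0.111) and a difference of -0.65 (SE 0.11, adjusted p = 0.00705). Eif2ak3 (PERK), the kinase of the translation factor eIF2alpha, read 10.36 and 10.30 against 9.90 and 9.69 at 6 h and 9.72 and 9.73 against 9.99 and 10.01 at 17 h.

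The order of the groups of Eif2ak3 turned in the same way, with 0.54 at 6 h (SE 0.09, adjusted p = 0.00546), -0.28 at 17 h (SE 0.09, adjusted p = 0.0527) and a difference of -0.81 (SE 0.12, adjusted p = 0.00439). Atf6, the sensor that is cleaved into a transcription factor, had 0.20 at 6 h (SE 0.07, adjusted p = 0.0665) and 0.07 at 17 h (adjusted p = 0.503).

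Of the 3 transcription factors, Ddit3 rose at 6 h, and Xbp1 rose and Atf4 fell at 17 h. Xbp1 read 15.17 and 15.28 with BTEE and 15.20 and 15.08 in control arrays at 6 h, and 15.16 and 15.18 against 14.74 and 14.82 at 17 h. Its groups overlapped at 6 h (0.09, SE 0.08, adjusted p = 0.458) and were apart at 17 h, where it rose by 0.39 (SE 0.08, adjusted p = 0.0133). That call was lost, at adjusted p-values up to 0.0736, without either BTEE replicate or without replicate 1 of the control. The deposited signal is 1 value for the gene and does not separate spliced from unspliced Xbp1 mRNA. The difference between the times was 0.31 (SE 0.11, adjusted p = 0.0817) and passed in 2 of 14 alternatives, those with a minimum signal and with a trended robust prior.

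Atf4 read 14.84 and 14.90 with BTEE and 14.77 and 14.80 without at 6 h, and 16.29 and 16.22 against 16.54 and 16.51 at 17 h. The BTEE arrays were above the control arrays at 6 h by 0.09 (SE 0.07, adjusted p = 0.391) and below them at 17 h, where Atf4 fell by 0.27 in log2 (SE 0.07, adjusted p = 0.0284). Without any 1 of the arrays of 17 h, the adjusted p was 0.0643 to 0.120. Ddit3 (CHOP) read 10.85 and 10.76 with BTEE and 10.57 and 10.58 in control arrays at 6 h, and 13.84 and 13.88 against 13.77 in both control arrays at 17 h.

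The groups of Ddit3 did not overlap at either time, with a rise of 0.23 at 6 h (SE 0.07, adjusted p = 0.0445) that was lost without any 1 of the 4 arrays (adjusted p = 0.0767 to 0.183), and with 0.09 at 17 h (SE 0.07, adjusted p = 0.369). A second probe set of Ddit3, which is not placed on the genome, disagreed at 17 h. It read 8.14 and 8.02 with BTEE and 7.86 and 7.90 without at 6 h, and 11.91 and 12.00 against 11.31 and 11.40 at 17 h. It had 0.20 at 6 h (SE 0.08, adjusted p = 0.100) and rose by 0.60 at 17 h (SE 0.08, adjusted p = 0.00339). Its difference between the times was 0.40 (SE 0.11, adjusted p = 0.0358), where the first probe set had -0.14 (SE 0.10, adjusted p = 0.311).

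Of the 3 targets of ATF4 and CHOP, 0 passed at 6 h and 2 fell at 17 h. Trib3 (chr2:152337425-152344060), a pseudokinase induced by CHOP, read 7.21 and 7.11 with BTEE and 6.97 and 6.85 in control arrays at 6 h. At 17 h it read 12.13 and 12.01 with BTEE and 12.97 and 13.08 without. The BTEE arrays were above the control arrays at 6 h and below them at 17 h. Trib3 had 0.25 at 6 h (SE 0.09, adjusted p = 0.0700), was 1.94-fold lower at 17 h, -0.96 in log2 (SE 0.09, adjusted p = 0.00135), and differed by -1.21 (SE 0.12, adjusted p = 0.00149).

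Chac1, a glutathione-degrading enzyme, read 7.11 and 6.88 with BTEE and 7.27 and 7.04 without at 6 h, where the groups overlapped, and 9.12 and 9.10 against 9.64 and 9.57 at 17 h, where they did not. It had -0.16 at 6 h (SE 0.11, adjusted p = 0.302) and fell by 0.50 in log2 at 17 h (SE 0.11, adjusted p = 0.0166), with an adjusted p of 0.0610 to 0.0849 without any 1 of the arrays of 17 h. Asns, asparagine synthetase, had 0.13 at 6 h and 0.14 at 17 h (adjusted p = 0.236 and 0.198).

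**Figure D3:**
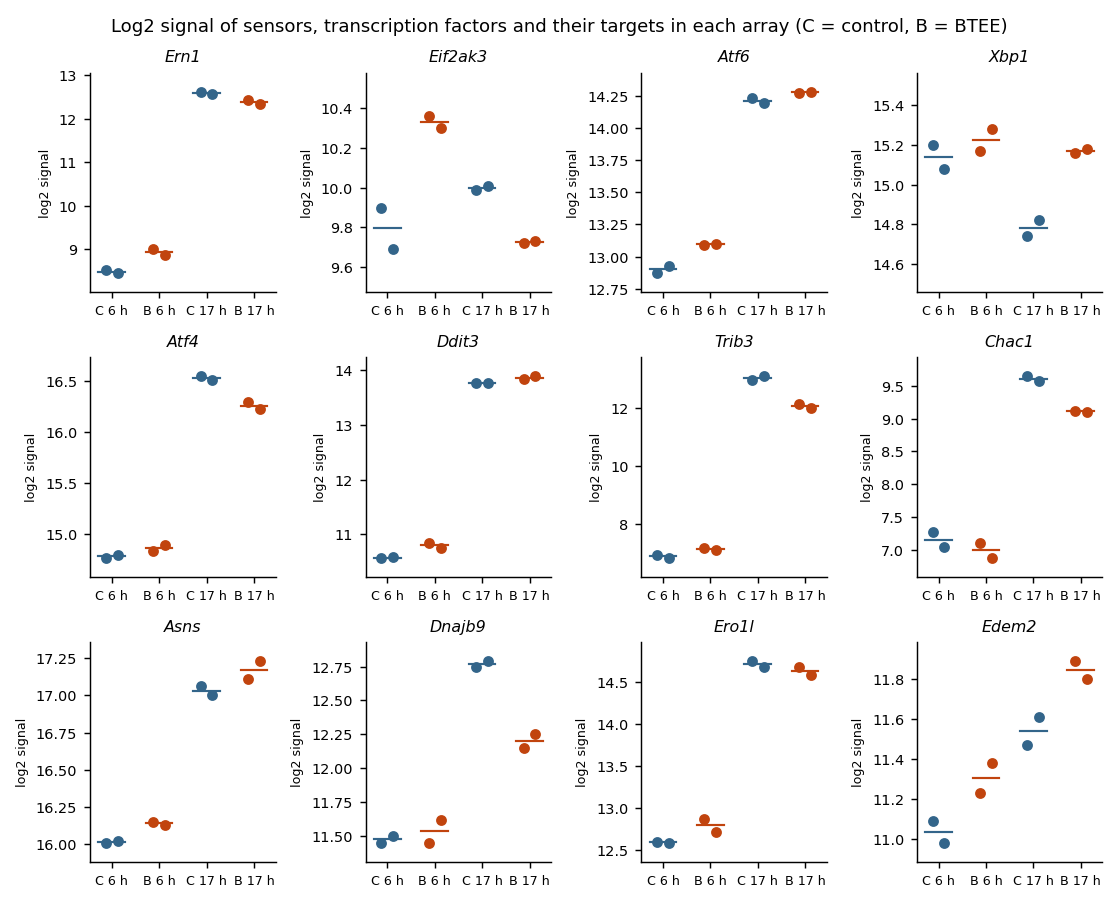
Log2 signal in each array (points) and group mean (lines) for the 3 sensors, the 3 transcription factors, the 3 ATF4 and CHOP targets and Dnajb9, Ero1l and Edem2, in control (C, blue) and BTEE-treated (B, orange) cells; each panel has its own axis, which does not start at 0. In Trib3 both groups rise by several log2 units from 6 h to 17 h and the BTEE arrays of 17 h (12.13 and 12.01) stand below the control arrays (12.97 and 13.08).

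Of the 8 genes for the degradation of misfolded proteins, 3 (37.5%) rose at 6 h, beside 14.5% of all symbols. At 17 h 1 rose and 1 fell (12.5% each), near the 14.9% and 13.6% of all symbols. Sel1l and Syvn1 (HRD1) encode the core of the ubiquitin ligase that passes misfolded chains out of the endoplasmic reticulum. Sel1l (chr12:91806043-91849157) read 11.90 and 11.82 with BTEE and 10.83 and 10.98 in control arrays at 6 h, and 12.36 and 12.33 against 12.61 and 12.49 at 17 h. Its BTEE arrays went from above to below the control arrays, with 0.96 at 6 h (SE 0.09, adjusted p = 9.61e-04), -0.21 at 17 h (SE 0.09, adjusted p = 0.114) and a difference of -1.16 (SE 0.12, adjusted p = 0.00150).

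Syvn1 (chr19:6046576-6053718) read 10.70 and 10.62 with BTEE and 9.96 and 9.87 without at 6 h, and 8.30 and 8.29 against 8.77 and 8.68 at 17 h. It was the member called in opposite directions, with a rise of 0.75 at 6 h (SE 0.08, adjusted p = 0.00134), a log2 fold change of -0.43 at 17 h (SE 0.08, adjusted p = 0.00768) and a difference of -1.18 (SE 0.11, adjusted p = 0.00124). All 3 calls of Syvn1 stood without any 1 array. Herpud1, a scaffold of the same ligase, read 14.04 and 13.98 with BTEE and 13.36 and 13.51 without at 6 h, and 13.87 and 13.89 against 13.64 and 13.71 at 17 h.

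The BTEE arrays of Herpud1 lay above the control arrays at both times. It rose by 0.58 at 6 h (SE 0.08, adjusted p = 0.00335), had 0.21 at 17 h (SE 0.08, adjusted p = 0.0963), and its difference of -0.37 (adjusted p = 0.0444) had adjusted p-values up to 0.122 with 1 array left out. Edem2, which trims mannose from misfolded glycoproteins, had 0.27 at 6 h (adjusted p = 0.0646) and rose by 0.31 at 17 h (SE 0.09, adjusted p = 0.0464). That call was lost, at adjusted p-values up to 0.205, without any 1 of the arrays of 17 h. Edem1 had 0.12 and 0.21, and the derlins Derl1, Derl2 and Derl3, membrane parts of the export route, had -0.02 to 0.16 at 6 h and -0.10 to -0.03 at 17 h, none of them past the test. Derl3 had the lowest signal of the members, with a mean of 4.44.

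The course from 6 h to 17 h was compared within the control cells and within the BTEE-treated cells. The first comparison uses the same control arrays, and the second the same BTEE arrays, as the BTEE effects, so these values are given side by side only. In control cells 27 members rose and 5 fell from 6 h to 17 h, where 25.8% of all symbols rose and 26.4% fell, with a median of 0.58 over the members and 0.005 over all symbols. In BTEE-treated cells 16 rose and 9 fell, where 23.6% of all symbols rose and 24.0% fell, with a median of 0.07 over the members and 0.00 over all symbols. Over 1.5-fold, 19 rose and 2 fell in control cells, beside 14.1% and 15.4% of all symbols, and 11 rose and 6 fell in BTEE-treated cells, beside 12.1% and 12.8%.

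The sensors, transcription factors and targets that rose with time did so with and without BTEE. Trib3 rose 69.3-fold in control cells, 6.12 in log2 (SE 0.09, adjusted p = 4.32e-08), and 30.1-fold in BTEE-treated cells, 4.91 in log2 (SE 0.09, adjusted p = 1.12e-07). Ern1 rose by 4.10 and 3.46, Ddit3 by 3.20 and 3.06, Chac1 by 2.45 and 2.12 and Atf4 by 1.74 and 1.39 in control and BTEE-treated cells, and in each of these genes the arrays of the times did not overlap. The second probe set of Ddit3 had the other order, with 3.48 in control and 3.88 in BTEE-treated cells. Asns rose by 1.02 and 1.03 and Atf6 by 1.31 and 1.18. Xbp1 fell by 0.36 in log2 in control cells (adjusted p = 0.00764) and had -0.06 in BTEE-treated cells (adjusted p = 0.610). Eif2ak3 had 0.21 in control cells (adjusted p = 0.0857) and fell by 0.61 in log2 in BTEE-treated cells (SE 0.09, adjusted p = 0.00102).

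Of the chaperones of the Hsp70 and Hsp90 systems, 6 of 7 rose and 0 fell in control cells, and 1 rose and 2 fell in BTEE-treated cells. Dnajb9 rose by 1.30 in control cells (adjusted p = 1.36e-05) and by 0.67 in BTEE-treated cells (adjusted p = 5.56e-04). Dnajb11 and Hspa5 rose by 0.64 and 0.35 in control cells and had -0.13 and -0.10 in BTEE-treated cells. Sdf2l1 rose by 0.62 in control cells (SE 0.08, adjusted p = 3.93e-04) and fell by 0.49 in log2 in BTEE-treated cells (SE 0.08, adjusted p = 0.00168).

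All 7 disulfide isomerases and oxidases rose in control cells and 4 of them in BTEE-treated cells. Ero1l rose by 2.12 and 1.84 in control and BTEE-treated cells, and P4hb by 0.84 and 0.72. Creld2 rose by 1.12 and Pdia5 by 0.95 in control cells, against 0.19 (adjusted p = 0.0887) and 0.06 (adjusted p = 0.548) in BTEE-treated cells, where the arrays of 6 h already read close to those of 17 h. Calr3 rose by 1.14 in control cells (SE 0.18, adjusted p = 0.00127) and had -0.26 in BTEE-treated cells.

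Prolyl isomerases went the other way. None of the 4 rose, and Fkbp7 and Fkbp11 fell in control cells and all 4 fell in BTEE-treated cells. Fkbp11 fell by 1.07 in log2 in control cells (SE 0.08, adjusted p = 2.04e-05) and by 1.04 in BTEE-treated cells (SE 0.08, adjusted p = 3.00e-05). Of the degradation genes, Sel1l rose by 1.65 and 0.49 and Derl1 by 1.05 and 0.98, while Syvn1 fell by 1.19 and by 2.37 in log2, in control and BTEE-treated cells. Edem2 rose by 0.51 and 0.54.

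The rises at 6 h were not limited to dim signals. Of the 34 members whose mean log2 signal was at least 6, 20 rose and 0 fell, where 16.5% of the 9387 symbols of that level rose and 20.3% fell. The median log2 fold change was 0.40 over these members and -0.02 over these symbols. Of the 4 dimmer members, Calr3, Fkbp7 and Fkbp14 rose and Derl3 did not pass the test. At 17 h 6 of the 34 brighter members rose and 5 fell, beside 22% and 16.7% of the symbols of that level. The difference between the times was lower in 16 of the 34 and higher in 0, beside 17% and 23.5%. The SD within groups, pooled over the 4 groups for each gene, had a median of 0.06 over the members and 0.11 over all symbols. These 2 sets differed in brightness, with median log2 signals of 12.25 and 5.29, so the SDs are not matched for signal.

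**Figure D4:**
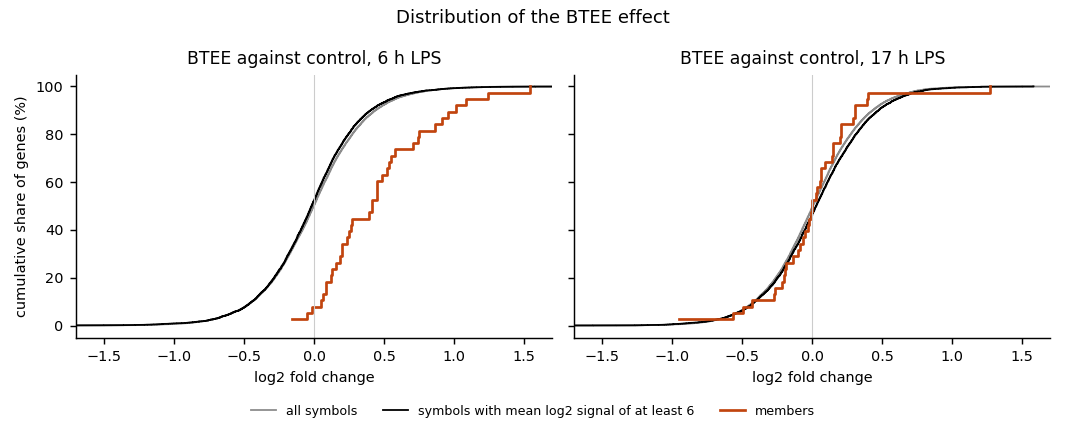
Cumulative share of genes (%) against the log2 fold change of BTEE over control at 6 h (left) and 17 h (right), for the 38 members (orange), all 21154 symbols (grey) and the 9387 symbols of a mean log2 signal no lower than 6 (black). At 6 h the members' curve lies to the right of the others, with a median of 0.41, and at 17 h it lies with them, with a median of 0.00.

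Other genes of the secretory pathway and of the stress response were taken as a second list of 82 genes, of which 80 were measured. At 6 h 22 of them (27.5%) rose and 11 (13.8%) fell, beside 14.5% and 15.7% of all symbols. Their median log2 fold change was 0.11. At 17 h 22 (27.5%) rose and 8 (10.0%) fell, beside 14.9% and 13.6%, with a median of 0.08. These genes were brighter than most, with a median log2 signal of 12.48 against 5.29 over all symbols. Of the 9387 symbols whose mean signal reached 6, 16.5% rose and 20.3% fell at 6 h. At 17 h 22% of these brighter symbols rose and 16.7% fell, so the share of rises there was closer to that of the list. At 6 h the largest rises were in Srprb (0.85), the beta subunit of the signal recognition particle receptor, Txndc11 (0.84), a thioredoxin-domain protein, Ssr3 (0.69), a translocon-associated subunit, Psph (0.64), the last enzyme of serine synthesis, and Ostc (0.63), a subunit of the oligosaccharyltransferase. Among the largest falls were those of Rnf139 (-0.77), a ubiquitin ligase of the endoplasmic reticulum, Bbc3 (-0.63), a death-promoting protein, Stc2 (-0.40), a secreted glycoprotein, and Tmx3 (-0.39), a membrane disulfide isomerase.

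At 17 h the genes that rose most were others. Phgdh, the first enzyme of serine synthesis, rose by 0.74, the translocon subunit Sec61g by 0.66, the lectin Erlec1 by 0.65, the translocon-associated subunit Ssr4 by 0.62 and Sil1, an exchange factor for BiP, by 0.51. The largest falls were in Wfs1 (-0.86), a membrane protein of the endoplasmic reticulum, Sesn2 (-0.82), a stress-induced regulator of growth signalling, Creb3l1 (-0.37), a cleaved transcription factor of the ATF6 type, Ppp1r15b (-0.36), a regulator of the eIF2alpha phosphatase, and Tmx1 and Mogs (-0.32 each). By role, 8 of 16 translocation genes (50%) rose and 1 fell at 17 h, against 4 and 2 at 6 h. In the ATF4 and integrated stress group, 6 of 21 genes (28.6%) rose and 2 fell at 6 h, against 4 (19%) and 2 (9.52%) at 17 h. In the other groups 23.1% to 33.3% rose at 6 h and 16.7% to 27.3% at 17 h. Of the symbols whose mean signal reached 6, 16.5% rose and 20.3% fell at 6 h, and 22% and 16.7% at 17 h. The later counts of the ATF4 group were thus not above those shares.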

How the data were processed

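RNA of 8 samples was hybridised to Clariom S mouse arrays. The authors ran SST-RMA in the Transcriptome Analysis Console (version 4.0.1 in the series text) and deposited 1 log2 signal per probe set and array, which was used as deposited. They also deposited comparison tables with group averages, fold changes, p-values and FDR. These served for probe set symbols alone, and the averages differed from means of the deposited log2 signals by at most 0.005. Of 22206 probe sets, 836 with several symbols and 3 with none were left out, and the brightest probe set stood for a symbol. Members were matched to RefSeq (GRCm38.p6), 36 by symbol and 2, Ero1l and Ero1lb, by an older symbol.

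Limma 3.58.1 in R 4.3.3 was fitted to all 8 arrays with 1 mean per group (4 residual and 3.12 prior degrees of freedom), after a check on simulated data, and p-values were adjusted by the Benjamini-Hochberg method over all 21154 symbols. Intervals are 95%. With 2 arrays against 2, a two-sided exact permutation test cannot go below 0.3333, and the number of arrays limits the precision. Values were given in full for members with an adjusted p under 0.05 and a fold over 1.5 with BTEE, those called at both times or for the difference, and Hspa5, Xbp1, Atf4 and Ddit3. For the time courses up to 4 members of a role with the largest change were named, with others beside their BTEE effect, and for the second list the 5 largest in each direction, of which 1 is not reported here. The members and lists were chosen with earlier results of these data known. Alternatives were quantile normalization, centring of arrays, a minimum signal, a replicate block, a trended robust prior, means of probe sets, the compared arrays alone, the methods' thresholds, and leaving out each array. Promoter motifs were not analysed here.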

Additional observations from a re-analysis of the deposited data

Results flagged for a closer look

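For 18 members the BTEE effect at 17 h minus that at 6 h passed limma's test of the difference, each with a value below 0 on the log2 scale. Among the folding genes the differences were -1.39 for Calr3, -1.11 for Sdf2l1, -0.93 for Creld2, -0.89 for Pdia5, -0.76 for Dnajb11, -0.70 for Fkbp7, -0.63 for Dnajb9, -0.52 for Pdia3, -0.45 for Hspa5, -0.35 for Hyou1 and -0.34 for Hsp90b1. Among the sensors, transcription factors and targets they were -1.21 for Trib3, -0.81 for Eif2ak3, -0.65 for Ern1 and -0.36 for Atf4. Among the degradation genes they were -1.18 for Syvn1, -1.16 for Sel1l and -0.37 for Herpud1. Of these 18, 13 passed in each alternative that tested them and kept the adjusted p as threshold (Calr3 is left out by the minimum signal), and Atf4, Fkbp7, Herpud1, Hsp90b1 and Hyou1 did not.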

How the results depend on the processing

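The counts of members that rose (23) or fell (0) at 6 h and of lower differences (18) stayed within 1.5 times under each alternative, except that 10 rises were left under the methods' thresholds (fold over 1.5 and p under 0.05 without adjustment). The counts of 17 h moved. With a minimum mean signal of 6 the rises were 9 against 6, so both directions gained calls in that run. Against 6 rises there were 3 after quantile normalization, 2 with only the arrays compared, 11 with a trended robust prior, 1 under the methods' thresholds and 1 to 2 with 1 array left out. Against 5 falls there were 9 with a minimum mean signal of 6, 9 with the trended robust prior, 1 under the methods' thresholds and 3 to 4 with 1 array left out. Higher differences were 0, and 1 with the minimum signal or the trended robust prior. Members lower at 17 h than at 6 h in control cells were 5, and 2 under the methods' thresholds, where those over 1.5-fold alone count. The cause of the other moves was not tested. With 1 array left out, 19 to 21 members rose at 6 h and 13 to 16 had a lower difference; the lone array of a group is then assumed to vary like the others. In each alternative that tested them and kept the adjusted p (the minimum signal leaves out Calr3), 19 of 23 members called at 6 h, 4 of 11 at 17 h (Fkbp11, Dnajb9, Trib3 and Syvn1) and 13 of 18 for the difference stayed called, and no direction turned. Some calls were lost by processing as well as by single arrays. At 6 h those of Canx and Ddit3 were lost after centring, with the replicate block and with the compared arrays alone. That of Ddit3 was also lost with means of probe sets. At 17 h Dnajc3, Fkbp2 and Edem2 lost theirs after quantile normalization. These 3 genes, P4hb and Atf4 lost theirs with the compared arrays alone, and Fkbp2 and Edem2 with the replicate block. Replicate numbers did not pair the arrays (correlations of deviations between -0.001 and 0.02). With the replicate block 21 members rose and 0 fell at 6 h, 4 rose and 5 fell at 17 h, and 16 differences were lower and 0 higher, and in time 27 rose and 5 fell in control and 16 and 9 in BTEE-treated cells. No detection value per probe set was used, so the level at which a dim signal ends is unknown.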

Other observations

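The listed members without a probe set of their own, Manf and Pdia4, had probe sets that carry a second symbol, and their values cannot be given to 1 gene. The probe set of Manf, a secreted stress protein of the endoplasmic reticulum, and Rbm15b read 16.56 and 16.47 with BTEE and 15.68 and 15.64 in control arrays at 6 h. At 17 h it read 15.69 and 15.74 with BTEE and 15.80 and 15.83 without. The BTEE arrays lay above the control arrays at 6 h and below them at 17 h, with a log2 fold change of 0.86 at 6 h (SE 0.07, adjusted p = 8.62e-04) and of -0.10 at 17 h (SE 0.07, adjusted p = 0.332) in a limma fit over all probe sets.

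The probe set of Pdia4, a disulfide isomerase, and Mir704 read 14.19 and 14.20 with BTEE and 13.44 and 13.46 in control arrays at 6 h, and 15.35 and 15.38 against 15.21 and 15.14 at 17 h. Its groups did not overlap at either time, and the log2 fold changes were 0.75 at 6 h (SE 0.07, adjusted p = 0.00102) and 0.19 at 17 h (SE 0.07, adjusted p = 0.0769). Between the times the 2 probe sets differed in course in control cells, where that of Pdia4 rose by 1.73 (adjusted p = 1.40e-06) and that of Manf had 0.16 (adjusted p = 0.109). That difference between probe sets was not tested.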
